A study of Mus musculus with 6 samples.

Results

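The genes described here encode the collagens, the laminin chains and 7 further proteins of the basement membrane and the matrix around blood vessels, measured in mouse brain 48 hours after a systemic injection of lipopolysaccharide (LPS), an outer membrane component of Gram-negative bacteria. They were taken by name. Every gene whose symbol has the form of a collagen chain (Col4a1) or a laminin chain (Lama4) was included, together with Fn1, Nid1, Nid2, Hspg2, Agrn, Sparc and Vtn. This gave 61 genes (44 collagens, 10 laminins and 7 others) of the 19938 genes that the array names alone. Each gene was represented by its brightest transcript cluster, a group of probes for 1 transcribed region. Whole brains came from 3 mice injected i.p. with LPS (Escherichia coli serotype 055:B5, 4 mg/kg) and from 3 mice injected i.p. with PBS. All 6 were male C57BL6 mice of 7 to 8 weeks and 20 to 25 g with no other treatment, they were perfused before the brain was taken, and 1 Affymetrix Mouse Gene 1.0 ST array was used for each mouse. The comparison asked how gene expression in the brain differs after peripheral LPS challenge.

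Basement membranes are thin sheets of matrix. In the brain they surround endothelial cells and pericytes and form the outer limit of the tissue, where astrocyte end-feet and the meninges attach. Laminins are trimers of an alpha, a beta and a gamma chain that bind to receptors on the cell surface and assemble into a network. Type IV collagen forms another network, and nidogens and the heparan sulphate proteoglycans perlecan and agrin connect the networks to each other and to cells. Fibronectin and vitronectin are adhesive glycoproteins that are abundant in plasma and are also deposited in matrix. In bulk tissue, more cells of a type and more RNA per cell cannot be told apart.

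Expression values were on the log2 scale, so that a difference of 1 is a doubling. LPS brains were tested against PBS brains with limma over all 35556 transcript clusters. A cluster was called higher or lower at a p under 0.05 after Benjamini-Hochberg adjustment. Differences are LPS minus PBS throughout. The first principal component, with 54.5% of the variance, set LPS replicates 1 and 2 apart from LPS replicate 3 and the PBS arrays. Array medians on the log2 scale were 7.09 and 7.11 for these, 6.96 for LPS replicate 3 and 6.96 to 6.98 for PBS. The 1210 clusters of olfactory and vomeronasal receptors, which are hardly transcribed in brain, had array medians of 5.67 to 5.81 and 95th percentiles of 6.46 to 6.64. Mean PBS expression was below the median of these receptors for 7 of the 61 genes, for which a lack of change is hardly informative, and 26 genes were above their 95th percentile in at least 1 group. For a gene taken alone, an exact permutation test (two-sided) of 3 against 3 mice cannot go below 0.1, and precision is limited by the number of arrays.

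Of the 61 genes, LPS-treated mice had 2 at a higher and 0 at a lower level, and 59 were not called. The higher genes were Fn1 and Hspg2, which encode fibronectin and perlecan. Across all clusters 0.652% were called higher and 0.0619% lower. Before adjustment, at a limma p under 0.05, 13 genes were higher and 1 was lower, where 7.69% and 6.58% of all clusters were. All 3 LPS arrays lay above all 3 PBS arrays for 14 genes and below them for 2, where this held for 9.73% and 10.3% of all clusters. The median log2 difference of the 61 genes was 0.05, against 0.00 over all clusters, and it turned to -0.02 after quantile normalization and to -0.05 with arrays centred on their medians (-0.03 and -0.09 over all clusters). Fn1, Hspg2, Nid1, Lama4, Lamc1 and Lama5 had the smallest p, while the 44 collagens had a median log2 difference of 0.03 (-0.03 after quantile normalization and -0.06 with centred arrays) and none of them passed. The count of higher genes rested on the arrays used. It was 1 without LPS replicate 1, 0 without LPS replicate 2 or any PBS replicate, and 7 without LPS replicate 3.

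**Figure D1:**
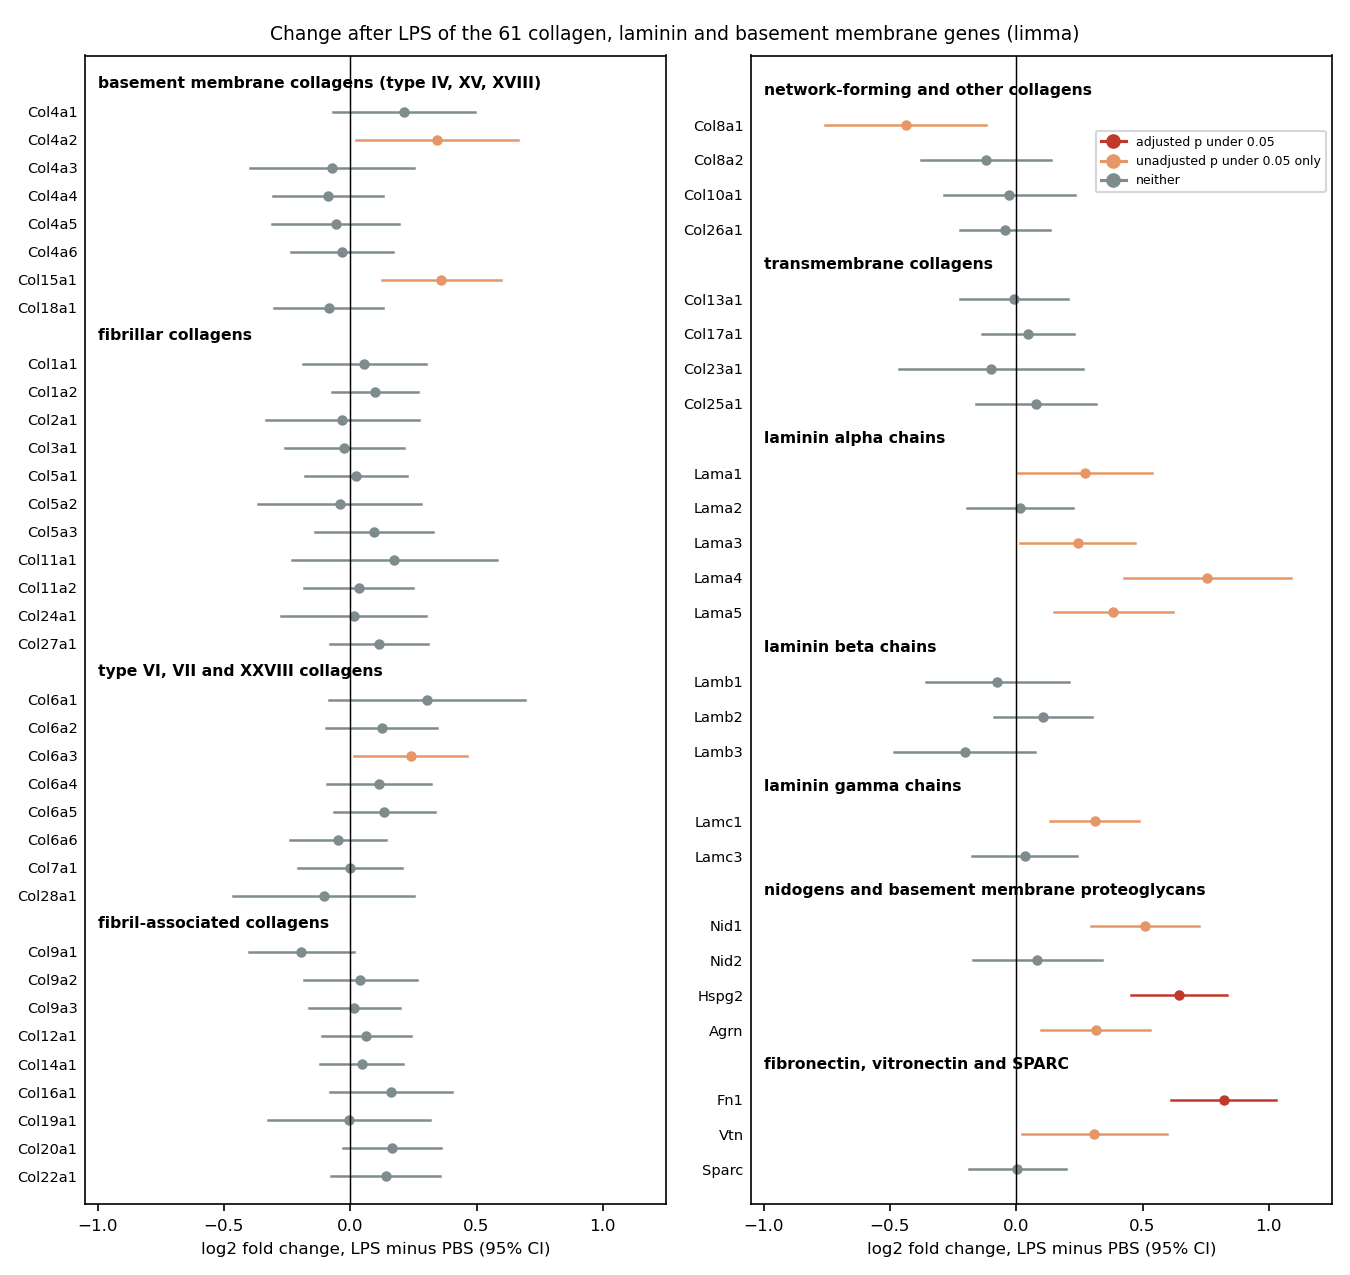
Log2 difference (LPS minus PBS) of the 61 genes by class, with 95% confidence intervals from limma over 3 LPS and 3 PBS arrays. Red marks the 2 genes with an adjusted p under 0.05, Fn1 and Hspg2, and orange the genes with only an unadjusted p under 0.05, of which Col8a1 is the only one to the left of 0.

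Fibronectin had the smallest p of the 61 genes. Fn1 (GRCm38.p6, chromosome 1, 71585473 to 71653280) had a log2 expression of 10.28, 10.43 and 10.48 in the LPS brains, against 9.56, 9.50 and 9.66 in the PBS brains. The lowest LPS value thus exceeded the highest PBS value by more than the range of either group. The means were 10.39 ± 0.10 after LPS and 9.57 ± 0.08 after PBS (SD, n = 3 each), a fold change of 1.77 and a log2 difference of 0.82 (standard error 0.09, limma adjusted p = 0.0131). The call was lost without LPS replicate 2 (limma adjusted p = 0.0648) and without PBS replicate 1, 2 or 3 (adjusted p = 0.0880, 0.0922 and 0.0613), and with centred arrays it was just missed (adjusted p = 0.0502), while the log2 difference stayed between 0.78 and 0.88 whichever array was left out. Vtn encodes vitronectin, which, like fibronectin, binds integrins. Its log2 expression was 10.38, 10.16 and 10.32 after LPS and 9.86, 10.21 and 9.86 after PBS. PBS replicate 2 lay above LPS replicate 2, so that the groups overlapped, and the log2 difference of 0.31 did not pass the test (limma adjusted p = 0.324). Sparc encodes a collagen-binding protein of the matrix. It had a log2 expression of 12.55, 12.52 and 12.55 after LPS and 12.45, 12.65 and 12.52 after PBS. The LPS arrays lay inside the range of the PBS arrays, and the 95% confidence interval of its log2 difference, -0.19 to 0.20, did not reach the difference seen for Fn1.

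Perlecan, the large heparan sulphate proteoglycan of vascular basement membranes, was the other gene to pass. Hspg2 (chromosome 4, 137468751 to 137570630) had a log2 expression of 7.35 in each of the 3 LPS brains and of 6.78, 6.59 and 6.75 in the PBS brains. The LPS arrays were nearly identical and all lay above the PBS arrays. The means of 7.35 ± 0.0031 after LPS and 6.70 ± 0.10 after PBS (SD, n = 3 each) gave a fold change of 1.56 and a log2 difference of 0.64 (standard error 0.08, limma adjusted p = 0.0230). This call was lost without LPS replicate 1 or 2 (limma adjusted p = 0.119 and 0.0938) and without PBS replicate 1, 2 or 3 (adjusted p = 0.0977, 0.102 and 0.108), and also after quantile normalization and with centred arrays (adjusted p = 0.0600 and 0.0784). Agrn encodes agrin, a related proteoglycan that is known for clustering acetylcholine receptors at the neuromuscular junction and is also found around brain microvessels. It had 9.41, 9.51 and 9.31 after LPS against 9.21, 9.06 and 9.02 after PBS on the log2 scale. Although the groups did not overlap, the log2 difference of 0.32 did not pass (limma adjusted p = 0.233).

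Nidogens bridge laminin and type IV collagen. Nid1 (chromosome 13, 13437602 to 13512275) had a log2 expression of 8.17, 8.09 and 8.11 in the LPS brains and of 7.72, 7.46 and 7.65 in the PBS brains. The groups lay apart, and the log2 difference was 0.51 (standard error 0.09, 95% confidence interval 0.30 to 0.73), but its adjusted p of 0.0826 from limma missed the threshold. Without LPS replicate 3 it passed (limma adjusted p = 0.0295). The paralogue Nid2 had values from 6.13 to 6.25 after LPS and from 6.00 to 6.31 after PBS, with a log2 difference of 0.08 (95% confidence interval -0.17 to 0.34, limma adjusted p = 0.751). Pairs of related genes, 9 in number, were chosen after the values were seen and so are given as a description. The LPS and PBS arrays separated in all of them but Col4a2 with Col4a1, which is no further evidence on genes already seen to differ. The log2 difference of Nid1 was 0.43 above that of Nid2. The difference between these genes was larger in each LPS array than in any PBS array. For perlecan and agrin, the log2 difference of Hspg2 was 0.33 above that of Agrn. Agrn was the brighter gene in every array, and its lead over Hspg2 was smaller in each LPS array than in any PBS array.

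Promoters are shown for Hspg2, which passed, and for Nid1, which had the next smallest p, from 250 bases before to 50 bases after a RefSeq start (GRCm38.p6). Such a window was available for 45 of the 61 genes, but not for Fn1, which also passed, or for Lama4 and Lamc1. The Hspg2 window lies at chr4:137468553-137468852 and the Nid1 window at chr13:13437352-13437651, both on the plus strand. Capitals mark the GC box GGGCGG or its reverse complement CCGCCC, the binding motif of Sp-family factors.
Hspg2: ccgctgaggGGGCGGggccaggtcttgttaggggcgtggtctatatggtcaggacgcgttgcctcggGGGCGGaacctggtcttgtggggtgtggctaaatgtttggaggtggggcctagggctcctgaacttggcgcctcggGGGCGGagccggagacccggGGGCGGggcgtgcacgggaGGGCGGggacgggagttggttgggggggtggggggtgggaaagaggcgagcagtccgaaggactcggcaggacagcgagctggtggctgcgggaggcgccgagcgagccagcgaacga
Nid1: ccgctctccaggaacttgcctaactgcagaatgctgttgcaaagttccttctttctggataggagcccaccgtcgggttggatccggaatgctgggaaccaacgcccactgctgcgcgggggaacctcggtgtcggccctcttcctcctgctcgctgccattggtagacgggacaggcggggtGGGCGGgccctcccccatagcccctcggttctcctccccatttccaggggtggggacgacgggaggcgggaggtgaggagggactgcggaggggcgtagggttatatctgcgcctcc
The window of Hspg2 held 5 GC boxes and had a GC content of 70.3%, against a median of 52.7% over all promoters. That of Nid1 held 1 GC box and 1 CCAAT box (CCAAT, either strand). A GC box was found in 30 of the 50 windows of these genes, against 35.7% of 32851 RefSeq promoters, and a CCAAT box in 15 of the 50, against 37.4%. Such matches describe letters and not binding.

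**Figure D2:**
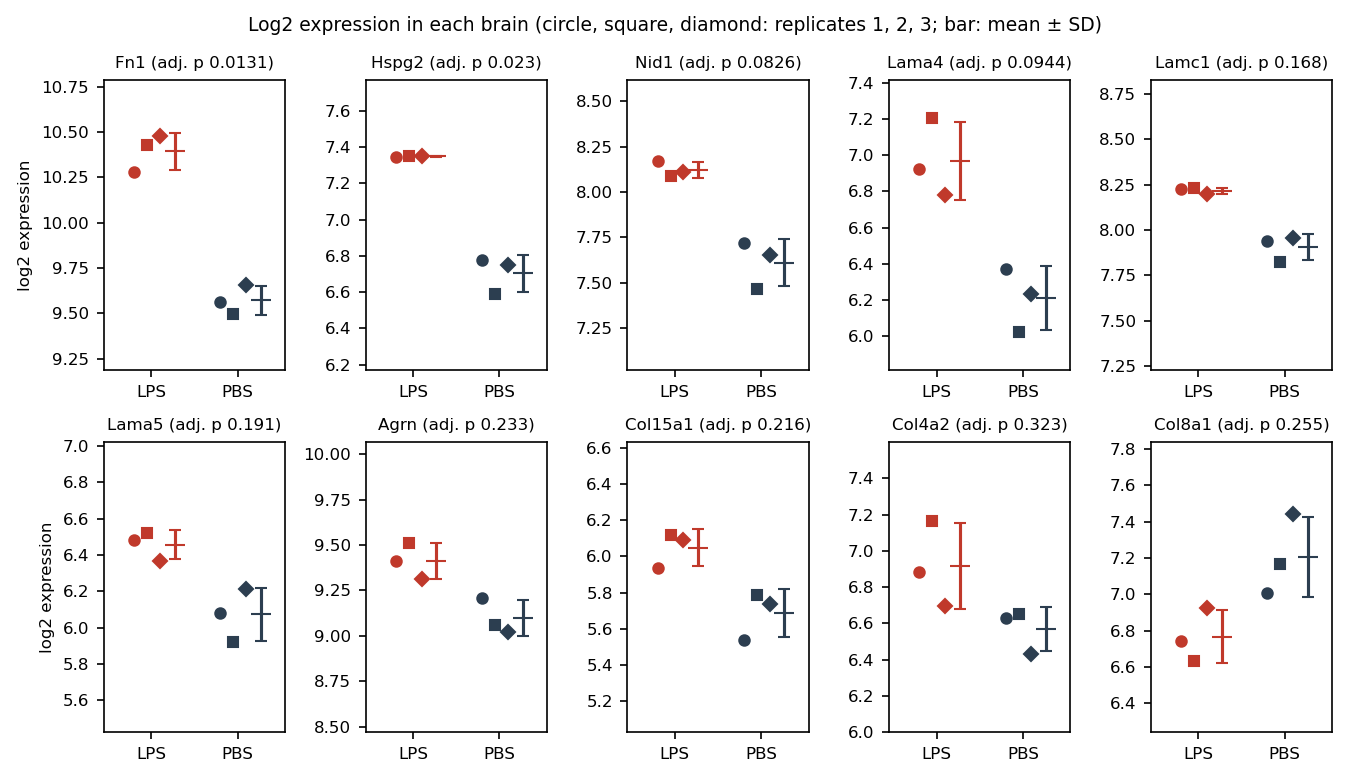
Log2 expression in each brain for the 10 of the 61 genes with the smallest p, with LPS on the left of each panel and PBS on the right. Symbols are single arrays and bars the mean ± SD (n = 3). All panels span the same number of log2 units. In all 10 the LPS and PBS values do not overlap, with LPS lower only for Col8a1, which follows largely from the choice by p. The groups overlapped in 45 of the 61 genes. Over all clusters, all LPS arrays lay above the PBS arrays in 9.73% and below them in 10.3%.

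None of the 10 laminin genes passed the limma test. At an unadjusted p under 0.05, 5 were higher and none was lower, and the median log2 difference was 0.17 (0.13 after quantile normalization and 0.08 with centred arrays). At that p 7.69% of all clusters were higher. The alpha chain decides which receptors a laminin trimer binds, and none of the alpha chains was called with all arrays. Without LPS replicate 3, 2 of the 5 alpha chains were called higher, and Lama4 was among them. Lama5 and Lama2 were not called whichever array was left out (lowest limma adjusted p = 0.0514 and 0.816). Lama4, which encodes the alpha chain of a laminin of endothelial basement membranes and lies on chromosome 10 from 38965515 to 39110188, had the largest log2 difference of the chains. Its log2 expression was 6.92, 7.20 and 6.78 after LPS and 6.37, 6.03 and 6.23 after PBS. The groups did not overlap, but the spread within each was wider than for Hspg2 or Nid1. The log2 difference was 0.76 (standard error 0.14, 95% confidence interval 0.43 to 1.09, limma adjusted p = 0.0944), and without LPS replicate 3 the gene passed the test (log2 difference 0.85, adjusted p = 0.0172). Lama5, whose product is the other alpha chain of endothelial laminins, had 6.48, 6.52 and 6.37 after LPS against 6.08, 5.92 and 6.21 after PBS. It did not pass, with a log2 difference of 0.38 (limma adjusted p = 0.191). The means of Lama5 were under the 95th percentile of the receptor clusters in both groups.

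Lama2, the alpha chain of muscle and of the parenchymal basement membrane laid down by astrocytes, overlapped between the groups. Its log2 expression was 7.81, 7.79 and 7.90 after LPS and 7.93, 7.70 and 7.83 after PBS. No array stood out, and the 95% confidence interval of the log2 difference, -0.19 to 0.22, did not reach the difference measured for Lama4. Set side by side after the values were seen, the log2 difference of Lama4 was 0.74 above that of Lama2 and that of Lama5 was 0.37 above it, and both differences held for each LPS array against each PBS array. Lama1, which encodes an early developmental and meningeal alpha chain, had 6.50, 6.50 and 6.18 after LPS and 6.18, 6.15 and 6.03 after PBS, with LPS replicate 3 inside the PBS range (log2 difference 0.27, limma adjusted p = 0.340). Lama3, a chain of epithelial laminins, was below the receptor median in the PBS brains, at a mean of 5.68, and had a log2 difference of 0.24 (limma adjusted p = 0.327).

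Among the gamma chains, Lamc1, the chain shared by most laminins, had a log2 expression of 8.22, 8.23 and 8.20 in the LPS brains, against 7.94, 7.82 and 7.96 in the PBS brains. The groups were well apart for a small difference, a log2 difference of 0.31 (standard error 0.07, limma adjusted p = 0.168). Lamc3 had a log2 difference of 0.03 (95% confidence interval -0.17 to 0.24). None of the 3 beta chains reached an unadjusted p under 0.05. Lamb2, a beta chain of vascular and synaptic laminins, had 8.00, 8.08 and 8.20 after LPS and 7.98, 8.03 and 7.96 after PBS (log2 difference 0.11, limma adjusted p = 0.575). Lamb1, its paralogue, had a log2 difference of -0.07 (95% confidence interval -0.36 to 0.21, limma adjusted p = 0.805). Lamb3, a chain of epithelial laminins, had 5.88, 5.56 and 5.59 after LPS against 5.79, 6.03 and 5.83 after PBS, values close to the receptor median and overlapping between the groups (log2 difference -0.20, limma adjusted p = 0.461).

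None of the 8 genes of type IV, XV and XVIII collagen, the collagens of basement membranes, passed the test. At an unadjusted p under 0.05, 2 were higher and none was lower, where 7.69% and 6.58% of all clusters were. The median log2 difference of the 8 was -0.045. Col15a1, whose product links basement membranes to the fibrils beneath them, had the smallest p of all collagens. Its log2 expression was 5.93, 6.12 and 6.09 after LPS and 5.54, 5.79 and 5.74 after PBS. The groups did not overlap, but the PBS mean of 5.69 was below the receptor median (log2 difference 0.36, limma adjusted p = 0.216). Col18a1, the related gene from whose protein product endostatin is cleaved, had a log2 difference of -0.09 (95% confidence interval -0.30 to 0.13).

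Col4a1 and Col4a2 encode the chains of the most widespread type IV collagen. They lie head to head on chromosome 8, from 11198423 to 11312889 and from 11312805 to 11449287, and are transcribed in opposite directions from a shared promoter region. Col4a2 had a log2 expression of 6.89, 7.17 and 6.69 after LPS, against 6.63, 6.65 and 6.43 after PBS. Col4a1 had 6.36, 6.76 and 6.39 after LPS, against 6.27, 6.31 and 6.28 after PBS. For both genes the LPS arrays were above the PBS arrays by a small margin, LPS replicate 2 was the highest, and the log2 differences of 0.34 and 0.21 did not pass (limma adjusted p = 0.323 and 0.448). The difference between their log2 differences was 0.13, and here the arrays of the groups overlapped. The windows around their starts are shown because they overlap by 78 bases, at chr8:11312777-11313076 on the minus strand for Col4a1 and chr8:11312555-11312854 on the plus strand for Col4a2. Capitals again mark GC boxes on either strand.
Col4a1: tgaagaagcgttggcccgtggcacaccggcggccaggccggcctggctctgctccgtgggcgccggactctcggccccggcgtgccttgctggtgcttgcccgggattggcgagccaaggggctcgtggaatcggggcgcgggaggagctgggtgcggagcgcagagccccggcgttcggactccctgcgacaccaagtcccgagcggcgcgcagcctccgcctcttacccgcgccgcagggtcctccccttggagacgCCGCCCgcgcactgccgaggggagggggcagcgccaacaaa
Col4a2: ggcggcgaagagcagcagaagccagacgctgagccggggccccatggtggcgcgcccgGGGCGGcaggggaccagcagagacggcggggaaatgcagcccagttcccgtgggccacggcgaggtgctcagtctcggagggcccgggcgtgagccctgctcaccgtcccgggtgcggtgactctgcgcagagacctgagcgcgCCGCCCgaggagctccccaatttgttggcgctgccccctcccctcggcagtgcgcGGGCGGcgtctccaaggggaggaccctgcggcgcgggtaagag
The Col4a1 window held 1 GC box and that of Col4a2 held 3, and each held 1 CCAAT box. The GC box of Col4a1 lies in the shared bases and is the same site as the last GC box of Col4a2. The genes of the other type IV chains, Col4a3, Col4a4, Col4a5 and Col4a6, had log2 differences of -0.07, -0.09, -0.06 and -0.03. The means of these genes and of Col4a1 (6.50 after LPS and 6.29 after PBS) lay under the 95th percentile of the receptors in both groups.

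Fibrillar collagens form the fibres of connective tissue and in brain are made mainly by fibroblasts of the meninges and vessels. With all arrays, none of their 11 genes passed the test or reached an unadjusted p under 0.05 from limma. Log2 differences ran from -0.04 to 0.17 with a median of 0.03 (smallest adjusted p = 0.549). Without LPS replicate 3, 1 of the 11 was called higher. It was neither Col1a2 nor Col27a1 (lowest limma adjusted p = 0.424 and 0.226 with 1 array left out). Col11a1 had the largest log2 difference of the 11, 0.17, with LPS replicates 1 and 2 above all PBS arrays and LPS replicate 3 below them. Col1a2, a chain of type I collagen, had 7.43, 7.52 and 7.44 after LPS and 7.32, 7.39 and 7.39 after PBS. The values did not overlap but the log2 difference was only 0.10 (limma adjusted p = 0.551). For Col1a1 and Col3a1, the main chains of type I and type III collagen, the 95% confidence intervals of the log2 difference were -0.19 to 0.30 and -0.26 to 0.21. Col27a1 had 6.86, 6.94 and 6.74 after LPS and 6.73, 6.77 and 6.69 after PBS, with a log2 difference of 0.11 (limma adjusted p = 0.549).

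Type VI collagen forms beaded filaments next to basement membranes. Of the 8 genes of type VI, VII and XXVIII collagen none passed, with a median log2 difference of 0.12 over the 8. Col6a3 alone reached an unadjusted p under 0.05, on the higher side, as 7.69% of all clusters did. Col6a3 had a log2 expression of 5.92, 6.19 and 6.16 after LPS against 5.84, 5.85 and 5.86 after PBS, all under the 95th percentile of the receptors (log2 difference 0.24, limma adjusted p = 0.326). Col6a1 had 7.32, 7.52 and 6.86 after LPS and 6.98, 6.89 and 6.92 after PBS. LPS replicates 1 and 2, the arrays that stand apart on the first principal component, were above all PBS arrays and LPS replicate 3 was below them. The log2 difference of 0.30 did not pass with all arrays (limma adjusted p = 0.433), and it was 0.49 without LPS replicate 3, where it passed (adjusted p = 0.0261). Col6a5 and Col6a6 each had a dimmer cluster as well, with log2 differences of 0.16 and 0.08 (limma adjusted p = 0.509 and 0.709).

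Among the 9 fibril-associated, the 4 network-forming or other and the 4 transmembrane collagens none passed. Only Col8a1 reached an unadjusted p under 0.05, on the lower side, as 6.58% of all clusters did. Col8a1, a network-forming collagen of the subendothelial matrix and of the cornea, was the gene with the most negative log2 difference of the 61. It had 6.74, 6.63 and 6.92 after LPS and 7.01, 7.17 and 7.44 after PBS. Every LPS array was below every PBS array, with a log2 difference of -0.44 (standard error 0.13, 95% confidence interval -0.76 to -0.12, limma adjusted p = 0.255). The other genes of its class, Col8a2, Col10a1 and Col26a1, had log2 differences of -0.12, -0.03 and -0.04. In Col26a1 the LPS values were 7.05, 7.06 and 7.08 and the PBS values 7.17, 7.12 and 7.02, so that the groups overlapped. Col9a1, a chain of the cartilage collagen type IX, was the other gene with all LPS arrays below the PBS arrays, at 6.15, 6.09 and 5.98 after LPS and 6.27, 6.17 and 6.36 after PBS (log2 difference -0.19, limma adjusted p = 0.374). Col9a3, of the same trimer, had 7.02, 7.03 and 6.94 after LPS against 6.93, 7.05 and 6.96 after PBS, with a log2 difference of 0.02. Col25a1, a neuronal transmembrane collagen, had 7.00, 7.05 and 7.26 after LPS and 7.03, 6.93 and 7.12 after PBS, with a log2 difference of 0.08 (limma adjusted p = 0.749).

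Genes that act on these proteins or bind them were also read as lists, chosen with earlier results of these data known. Of 29 measured genes of collagen modification, secretion and crosslinking, 1 was called higher, 0 lower and 28 neither. Over all clusters 0.652% were called higher and 0.0619% lower. The called gene was Tgm2, which encodes a transglutaminase that crosslinks fibronectin and other matrix proteins. Its log2 expression was 7.84, 7.63 and 7.75 after LPS and 6.80, 6.89 and 7.07 after PBS. The groups were far apart (log2 difference 0.82, limma adjusted p = 0.0215), but the call needed every array but LPS replicate 3 (adjusted p from 0.0572 without LPS replicate 2 to 0.127 without PBS replicate 2). Pcolce2, an enhancer of procollagen processing, had a log2 difference of -0.65 that did not pass (limma adjusted p = 0.119).

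Of 26 genes of receptors for collagens, laminins and fibronectin 1 was higher and none was lower. Itga6, which encodes an integrin subunit of laminin receptors, had a log2 expression of 9.29, 9.27 and 9.53 after LPS against 8.73, 8.61 and 8.63 after PBS (log2 difference 0.71, limma adjusted p = 0.0308). Itga5, a subunit of the fibronectin receptor, had a log2 difference of 0.57 (limma adjusted p = 0.0873). Among 31 measured genes of other matrix glycoproteins and TGF-beta signalling, Tgfbi and Dcn were higher and none was lower. Tgfbi, a matrix protein induced by TGF-beta, had 7.98, 7.92 and 8.10 after LPS against 7.41, 7.37 and 7.33 after PBS. Dcn encodes decorin, a small proteoglycan that binds collagen fibrils, and had 11.04, 11.00 and 11.26 after LPS against 10.52, 10.38 and 10.46 after PBS. In both the groups lay apart, with log2 differences of 0.63 and 0.64 (limma adjusted p = 0.0245 and 0.0466). The calls of Itga6, Tgfbi and Dcn also needed every array but LPS replicate 3, with the highest limma adjusted p, 0.172, 0.139 and 0.230, reached without PBS replicate 2, 3 and 2. With centred arrays the calls of Tgm2, Itga6, Tgfbi and Dcn were all lost (limma adjusted p = 0.0627, 0.122, 0.121 and 0.155), and that of Tgfbi was also lost after quantile normalization (limma adjusted p = 0.0617). The 3 lists, read against the 0.652% of all clusters called higher, had median log2 differences of 0.07, 0.07 and 0.05, which became 0.03, 0.02 and -0.01 after quantile normalization and -0.03, -0.02 and -0.04 with centred arrays.

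Markers of the cell types that a whole brain holds were measured on the same arrays. The lists were chosen with earlier results of these data known, so the counts below describe these arrays and are not separate evidence. Of 12 genes of brain endothelial cells, 8 were called higher, 0 lower and 4 neither, where 0.652% of all clusters were called higher. Their median log2 difference was 0.93, and 11 of the 12 had all LPS arrays above the PBS arrays, as 9.73% of all clusters did. The genes called higher numbered 7 after quantile normalization and 6 with centred arrays. The 8 included Pecam1, Cdh5, Cldn5 and Kdr, with log2 differences of 1.04, 0.85, 0.98 and 0.94. The log2 of the summed level of the 12 was 13.09 to 13.13 after LPS and 12.41 to 12.71 after PBS, and all 12 were above the 95th percentile of the receptor clusters in at least 1 group. Slc2a1, the glucose transporter of these cells and of the blood-brain barrier, had a log2 difference of -0.07 (limma adjusted p = 0.785). The endothelial genes passing numbered 4 without PBS replicate 1 or 2, 5 without LPS replicate 1 or PBS replicate 3, 6 without LPS replicate 2 and 9 without LPS replicate 3. Among 10 genes of pericytes and smooth muscle cells none passed. At an unadjusted p under 0.05, 5 of the 10 were higher and none was lower, where 7.69% and 6.58% of all clusters were. The median log2 difference of the 10 was 0.27, and the log2 summed level was 11.66 to 11.91 after LPS and 11.24 to 11.52 after PBS.

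Of the remaining marker lists, that of perivascular and meningeal fibroblasts, which make fibrillar collagens, had Dcn as its only higher gene of 12, with 3 genes lower at an unadjusted p under 0.05, a median log2 difference of -0.05 and a log2 summed level of 12.42 to 12.74 after LPS and 12.40 to 12.45 after PBS. None of 6 measured genes of blood monocytes, which can express Fn1, passed. Their log2 summed level was 9.04 to 9.40 after LPS and 8.62 to 8.80 after PBS. Lyz2, which encodes lysozyme and was the brightest of the 6, had a log2 difference of 1.04 (limma adjusted p = 0.0858). The median log2 difference of the 6 was 0.11, and 0.02 with centred arrays. Of the 6, 5 had a positive log2 difference and Ccr2 a negative one, -0.29. Only 2 of the 6 were above the 95th percentile of the receptor clusters in at least 1 group. No gene passed among 8 of astrocytes, 8 of choroid plexus epithelium, 5 of microglia, 6 of neurons, 5 of oligodendrocytes and 5 of bone and cartilage of the skull, where 1, 0, 2, 0, 0 and 0 were higher and 1, 0, 0, 0, 2 and 0 lower at a limma p under 0.05 before adjustment. The median log2 differences of these lists ran from -0.14 to 0.11. Before adjustment, 7.69% of all clusters were higher and 6.58% lower at a limma p under 0.05. The part of endothelial, pericyte or monocyte content in the values of Fn1, Hspg2, Nid1, Lama4 and Lamc1 was not tested.

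**Figure D3:**
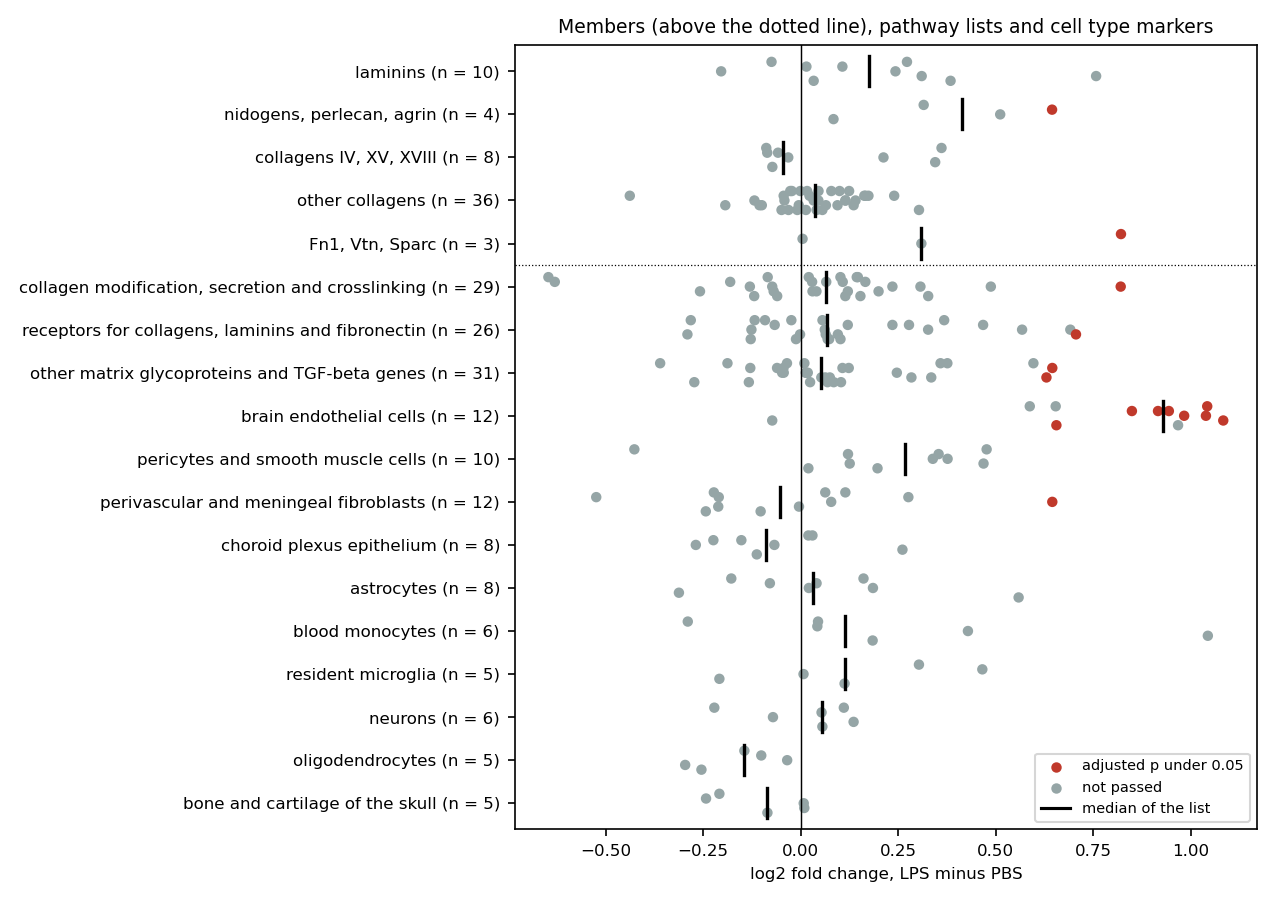
Log2 difference (LPS minus PBS) of each gene, with the classes of matrix genes above the dotted line and the pathway and cell type lists under it. Each point is 1 gene, red where the adjusted p was under 0.05, and the black line is the median of the list, which is 0.93 for brain endothelial cells and 0.17 for laminins.

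**Figure D4:**
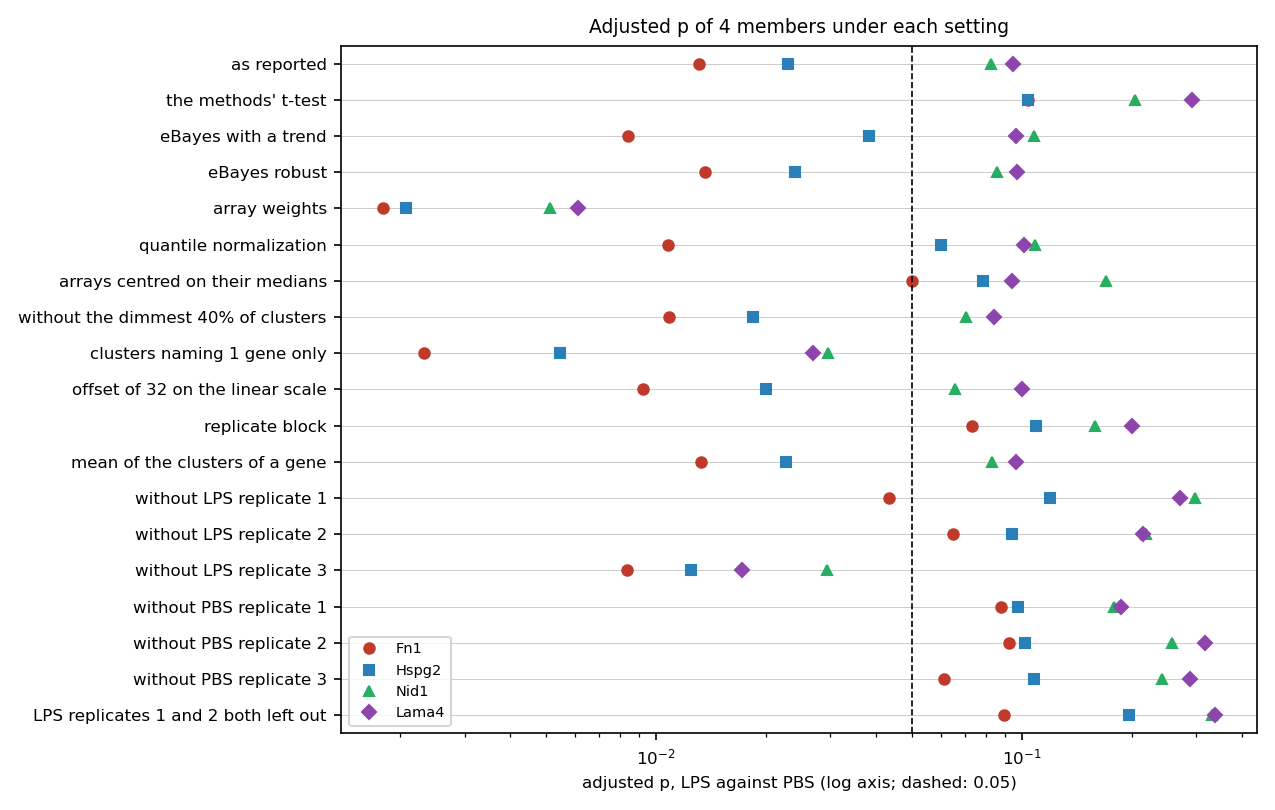
Adjusted p (log axis) of Fn1, Hspg2, Nid1 and Lama4 under the reported fit and each alternative, with the threshold of 0.05 dashed. Fn1 lies to the right of it in 4 and Hspg2 in 5 of the 6 settings that leave out 1 array, and Nid1 and Lama4 fall under it with array weights, with only clusters naming 1 gene, and without LPS replicate 3.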

How the data were processed

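Whole brain RNA of 3 LPS-treated and 3 PBS-treated mice had been hybridized to Mouse Gene 1.0 ST arrays. Log2 expression values were taken as the authors deposited them. They were assumed to come from RMA. The methods name RMA adjusted for GC content and RMA 16, and which of these gave the values is not stated. No filter or further normalization was applied. Genes were named from the platform annotation, taking clusters that name 1 gene, and located on GRCm38.p6. The two-sided test was limma (version 3.58.1, R 4.3.3; functions lmFit and eBayes), with Benjamini-Hochberg adjustment over 35556 clusters. The genes and lists were chosen with earlier results of these data known. Values per array are given for the genes that passed, the 10 with the next smallest p, and the brightest and the smallest-p gene of each class. Intervals are 95% confidence intervals. The procedure was tested on simulated data. Alternatives were the methods' t-test (unpaired), robust eBayes, eBayes with a trend, quantile normalization, array weights, median centring, leaving out the dimmest 40% of clusters, clusters naming 1 gene, an offset of 32 on the linear scale, the mean of a gene's clusters, the replicate number as a block, an adjusted threshold of 0.1, and arrays left out.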

Additional observations from a re-analysis of the deposited data

How the results depend on the processing

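Over the named genes, no called difference changed sign, and 376 of the values under an alternative stayed on their side of the threshold, 18 lost a call and 15 gained one. The count of higher genes, 2, was 0 by the methods' t-test, with centred arrays, with the replicate block and with LPS replicates 1 and 2 both left out (1 LPS array then remained and was assumed to vary like the PBS arrays), 1 with quantile normalization, 4 with only clusters naming 1 gene or an adjusted p under 0.1, and 15 with array weights, which gave LPS replicate 1 a weight of 8.69 and called 4751 clusters higher and 3572 lower. With 1 array left out it ranged from 0 to 7. Lower genes numbered 0, and 1 (Col8a1) with array weights. At an unadjusted p under 0.05 the 13 higher genes became 7 with centred arrays, 8 without the dimmest 40% of clusters (27 of the genes tested), 8 without LPS replicates 1 and 2, and 8 to 15 with 1 array left out. The 1 lower gene became 4 with array weights, 2 with quantile normalization, 3 with centred arrays and 1 to 2 with 1 array left out. The cause of these shifts was not tested.

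The replicate numbers did not pair the arrays, as same-numbered arrays correlated at 0.09, -0.05 and 0.10 in their deviations from the group means. With the replicate number as a block, the differences of Fn1 and Hspg2 had a limma adjusted p of 0.0731 and 0.109, and 76 clusters were higher and 4 lower, against 232 and 22 without it. No source used here gives background per probe. In both groups 35 of the genes lay under the 95th percentile of the receptor clusters, which limits what their lack of a call can show.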
